A study of Mus musculus with 12 samples.

Results

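The classical histone deacetylase genes of mouse ileal enteroids are described here across treatment with butyrate, IL-13 and both. They are the zinc-dependent deacetylase genes, taken as every gene of the deposited count table with the symbol Hdac1, Hdac2, Hdac3, Hdac4, Hdac5, Hdac6, Hdac7, Hdac8, Hdac10 or Hdac11. All 10 were found, in 11 of the table's 18092 rows and as 10 of its 18068 genes, and all 10 passed the filter on low counts that left 13750 genes for testing. Hdac9 was not analysed here. Enteroids are cultures of intestinal epithelium, grown in this study from the ileum of wild-type C57Bl/6 mice, and their poly(A) RNA was sequenced by a directional protocol. The 12 libraries formed 4 groups of 3: enteroids given 1 mM butyrate for 48 h together with 20 ng/mL IL-13 for 72 h, enteroids given that dose of IL-13 alone, enteroids given that dose of butyrate alone, and untreated enteroids. Separate cultures or animals are not stated for the 3 libraries of a group, so p-values reflect the spread among these libraries alone, and that spread may be technical.

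Histone deacetylases take acetyl groups off lysines, and the class I enzymes HDAC1, HDAC2 and HDAC3 do so on histones as the catalytic subunits of large corepressor complexes. Class IIa enzymes have little deacetylase activity of their own and carry corepressors to transcription factors of the MEF2 family, class IIb enzymes act mainly in the cytoplasm, and HDAC11 is the lone class IV enzyme. Butyrate, a short-chain fatty acid made by gut bacteria, inhibits the enzymes of class I and class IIa, while HDAC6 and HDAC10 are known to be little affected, and in mice HDAC3 is needed in the intestinal epithelium for an intact barrier. IL-13 is a type 2 cytokine that signals through the transcription factor STAT6. The libraries report the mRNA of these enzymes, not their activity.

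Library totals ran from 13867982 to 15618074 counts with both agents, 14239405 to 15008598 with IL-13, 17006538 to 24294456 with butyrate and 16303915 to 22558599 in untreated enteroids. Levels below are counts per 1000000 counts of the library total (CPM) after TMM scaling, a correction for the makeup of each library. The summed level of 8 epithelial markers was 8911 to 12474 CPM in all libraries, against at most 6.15 CPM for 8 of 10 mesenchymal markers found in the table, 17.4 for 5 of 11 immune, 3.502 for 5 of 6 endothelial and 29.9 for 6 rows taken as glial or neuronal markers. Among those rows Sox21 stood in for Sox10, to which it was matched by a listed synonym only. The glial or neuronal sum may thus hold a gene that is not the listed marker. The glial or neuronal sum was 12.4 to 16.6 CPM with both agents and 28.1 to 29.9 CPM with IL-13, against 16.4 to 16.8 CPM in untreated enteroids, and the endothelial sum was 1.34 to 2.79 CPM with both agents and 2.60 to 3.502 CPM with IL-13, against 1.26 to 1.34 CPM in untreated enteroids; the part of such cells in the results below was not tested. Lars2, a mitochondrial leucyl-tRNA synthetase gene, stood at 6983 CPM in the third library with both agents and 5048 CPM in the second with butyrate, against 423 to 1434 CPM elsewhere, so results that change without those libraries are given with and without them.

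Most of the deacetylase genes were lower wherever IL-13 was present, and none moved beyond the test's threshold with butyrate alone. With both agents 7 of the 10 fell below untreated enteroids by edgeR's quasi-likelihood test, at an adjusted p under 0.05 over all genes, and 0 rose, where 31.5% of all genes tested fell. With IL-13 alone 6 of 10 fell and 0 rose, where 21.7% of all genes fell. Without untreated replicate 2 the count was 3 of 10, and it was 4 of 10 without untreated replicate 3 or without any single IL-13 library. All 3 libraries lay below all 3 untreated ones for 8 of the 10 genes with both agents, where 35.1% of all genes did so, and for 8 of the 10 with IL-13, where 29.9% did. The median log2 fold change over the 10 genes was -0.43 with both agents, -0.36 with IL-13 and -0.12 with butyrate. Over all genes tested it was -0.05, -0.01 and -0.01 in the same comparisons. In bulk RNA, fewer cells of a type that makes an mRNA and less of it in each cell cannot be told apart.

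Set against IL-13 alone, the further addition of butyrate was accompanied by lower Hdac6, Hdac7 and Hdac10, 3 of 10 genes where 11.3% of all genes fell. That count was 1 of 10, Hdac6, without IL-13 replicate 1, IL-13 replicate 2 or butyrate + IL-13 replicate 3, without both Lars2-high libraries, or when the fit held those groups alone. Set against butyrate alone, both agents gave 6 of 10 genes lower where 24.9% of all genes fell. With butyrate alone edgeR called 0 of 10, where it called 7.90% of all genes in either direction; 1 gene, Hdac7, had an unadjusted p under 0.05, and DESeq2 called 0. The interaction, which asks whether the change with both agents differs from the sum of the single changes on the log2 scale, was also called for 0 of 10 genes, where 0.865% of all genes were called; Hdac6 alone had an unadjusted p under 0.05 (0.0101), and DESeq2 called 0. The comparisons with untreated enteroids share the same 3 untreated libraries, so their values are given side by side only.

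The counts depend on how libraries are scaled, because TMM raised the effective totals of untreated libraries (factors 1.08 to 1.11) and lowered those with both agents (0.876 to 0.906). With plain library totals the median of all genes moved to -0.34 with both agents and -0.18 with IL-13. On that scale 10 of 10 deacetylase genes were called lower with both agents, where 49.8% of all genes were, and 8 of 10 with IL-13, where 33.8% were. Of all calls, 76.1% were then lower with both agents and 71.9% with IL-13, against 52.7% and 49.9% under TMM.

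**Figure D1:**
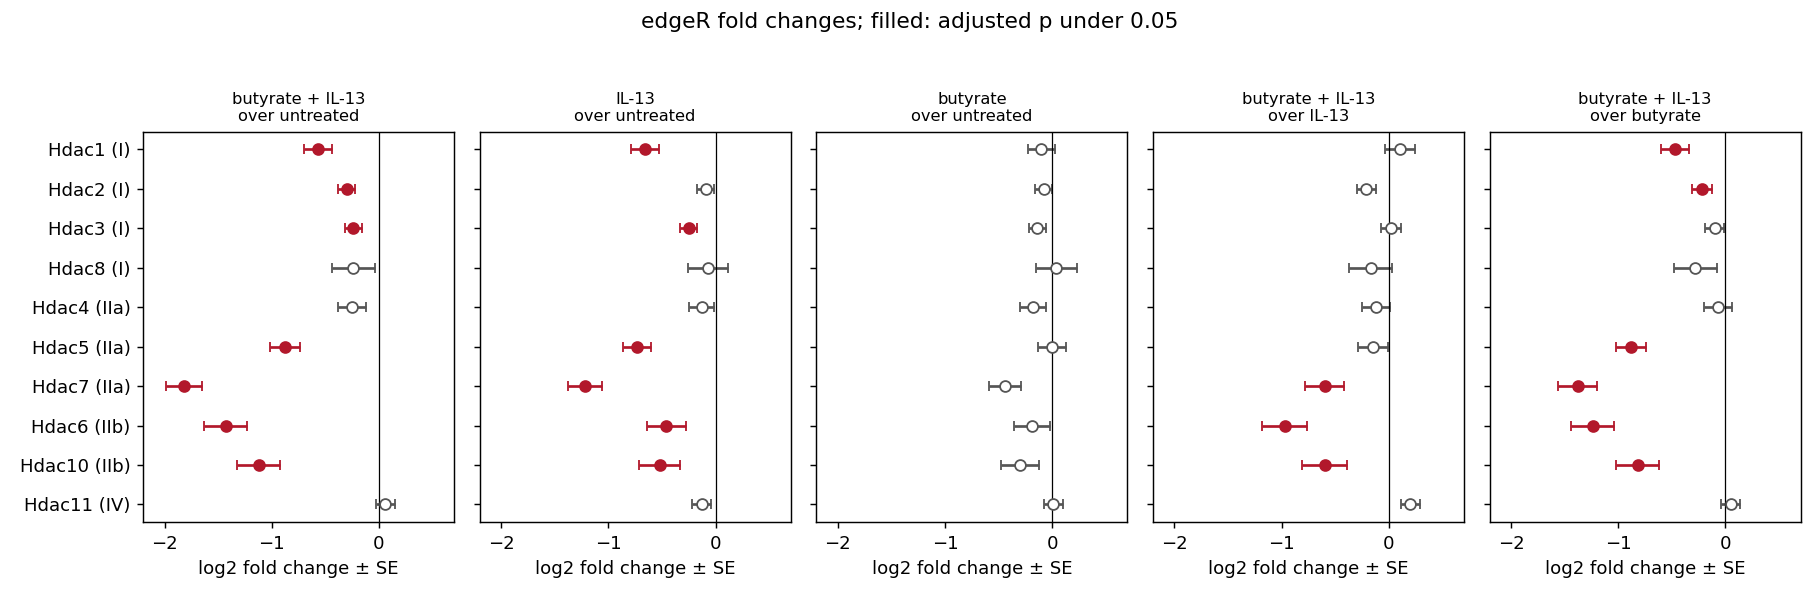
edgeR log2 fold changes with their standard errors (horizontal axis) of the 10 genes, ordered by class from top to bottom, in 5 comparisons of 3 libraries with 3; filled points have an adjusted p under 0.05. The filled points all lie left of 0, with 7 for both agents over untreated, 6 for IL-13 over untreated, 0 for butyrate over untreated, 3 for both agents over IL-13 and 6 for both agents over butyrate.

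Class I holds the enzymes of the nuclear corepressor complexes, and 3 of its 4 genes fell with both agents while 2 of 4 fell with IL-13. HDAC2, a subunit of the NuRD, Sin3 and CoREST complexes, is encoded on chromosome 10. Hdac2 stood at 46.0, 41.9 and 43.3 CPM in the libraries with both agents, 52.2, 52.5 and 47.2 CPM with IL-13, 48.7, 52.0 and 52.6 CPM with butyrate, and 54.4, 52.8 and 54.4 CPM in untreated enteroids. The 3 libraries with both agents were the lowest of the 12. Hdac2 fell with both agents, to 0.81 of the untreated level (log2 fold change -0.30 ± 0.08, edgeR adjusted p = 0.0053), and not detectably with IL-13 (-0.09 ± 0.08, edgeR adjusted p = 0.41). Its fall against butyrate alone (-0.22 ± 0.09, edgeR adjusted p = 0.038) lost the call under 12 of 20 alternatives, with adjusted p up to 0.134 when the fit held those groups alone and 0.128 without the Lars2-high libraries.

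HDAC3 is the catalytic subunit of nuclear receptor corepressor complexes. Hdac3 stood at 47.8, 48.4 and 53.2 CPM with both agents, 49.4, 48.3 and 50.1 CPM with IL-13, 49.99, 53.3 and 56.9 CPM with butyrate, and 58.4, 60.7 and 57.0 CPM in untreated enteroids. Every treated library lay below every untreated one. Hdac3 fell with both agents to 0.85 of the untreated level (log2 fold change -0.24 ± 0.08, edgeR adjusted p = 0.023). That call was lost on leaving out untreated replicate 2 (0.085), butyrate + IL-13 replicate 1 (0.14) or butyrate + IL-13 replicate 2 (0.0701). With IL-13 it fell to 0.84 (-0.25 ± 0.08, 0.021), and that call too was lost on leaving out untreated replicate 2 (0.0855), IL-13 replicate 1 (0.0502) or IL-13 replicate 2 (0.0731). HDAC8, which deacetylates the cohesin subunit SMC3, is made from a low mRNA: Hdac8 spanned 5.05 to 7.73 CPM with both agents, 6.04 to 9.44 CPM with IL-13, 6.96 to 8.74 CPM with butyrate and 7.27 to 8.06 CPM in untreated enteroids. Its groups overlapped in every comparison, with log2 fold changes of -0.24 ± 0.20, -0.07 ± 0.19 and 0.04 ± 0.19 over untreated for both agents, IL-13 and butyrate, none called by edgeR.

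Hdac1, whose product is the close relative and partner of HDAC2, had the lowest class I counts after Hdac8, but its counts share sequence with another row. The pseudogene Gm10093, which RefSeq names Hdac1-ps, is listed at mm10 chr17:78491565-78493541 on the plus strand and matches the 1446-base Hdac1 coding sequence over 1435 bases, 99.38% by alignment of GENCODE transcripts, with 9 single-base differences. Of 1989 windows of 50 bases along the Hdac1 transcript, 1167 (58.67%) occur in transcripts of other genes, most of them in Gm10093, while Hdac2 shares none. The stretch of 80 bases that holds 6 of the 9 differences is shown for both, from position 403 to 482 counted from the A of the Hdac1 start codon, with the differing bases in capitals. The substitutions there, Hdac1 base first, are C408T, T441A, A460G, C465T, C472T and T482C; from position 720 to 1169, 450 bases in a row are equal.
Hdac1: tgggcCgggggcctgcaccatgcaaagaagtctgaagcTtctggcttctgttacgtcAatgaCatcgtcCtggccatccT
Gm10093: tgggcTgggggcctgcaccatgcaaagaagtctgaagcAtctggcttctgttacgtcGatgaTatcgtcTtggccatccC

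Hdac1 stood at 10.2, 9.40 and 10.8 CPM with both agents, 10.3, 8.93 and 9.19 CPM with IL-13, 15.96, 13.2 and 12.8 CPM with butyrate, and 14.9, 15.1 and 14.9 CPM in untreated enteroids. The 6 libraries given IL-13 all lay below the 6 without it. Gm10093 was listed far higher, at 78.4 ± 5.39 CPM with both agents, 70.2 ± 6.57 with IL-13, 96.4 ± 14.2 with butyrate and 100.1 ± 6.04 in untreated enteroids (SD, n = 3 each). Hdac1 took 11.4 ± 0.341% of the counts of both rows with both agents, 11.98 ± 1.86% with IL-13, 12.8 ± 2.05% with butyrate and 13.05 ± 0.724% in untreated enteroids. In this share the libraries with both agents lay below the untreated ones, and those with IL-13 or butyrate overlapped both groups. The sources used here do not give how the counting assigned reads that match both, and which gene they came from cannot be told apart.

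Hdac1 fell with both agents to 0.68 of the untreated level (log2 fold change -0.57 ± 0.13, edgeR adjusted p = 0.0014) and with IL-13 to 0.63 (-0.66 ± 0.13, edgeR adjusted p = 5.7e-04). It also fell against butyrate alone (-0.47 ± 0.13, edgeR adjusted p = 0.0077; 0.0617 without butyrate replicate 1). With the counts of both rows summed, a step added after the data were seen, the fold changes were smaller and the same 3 comparisons were called: -0.38 ± 0.10 for both agents over untreated (edgeR adjusted p = 0.0028), -0.53 ± 0.10 for IL-13 over untreated (2.6e-04) and -0.32 ± 0.10 for both agents over butyrate (0.012). Neither way of counting gave a call for butyrate over untreated, with adjusted p of 0.73 for Hdac1 and 0.79 for the sum.

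**Figure D2:**
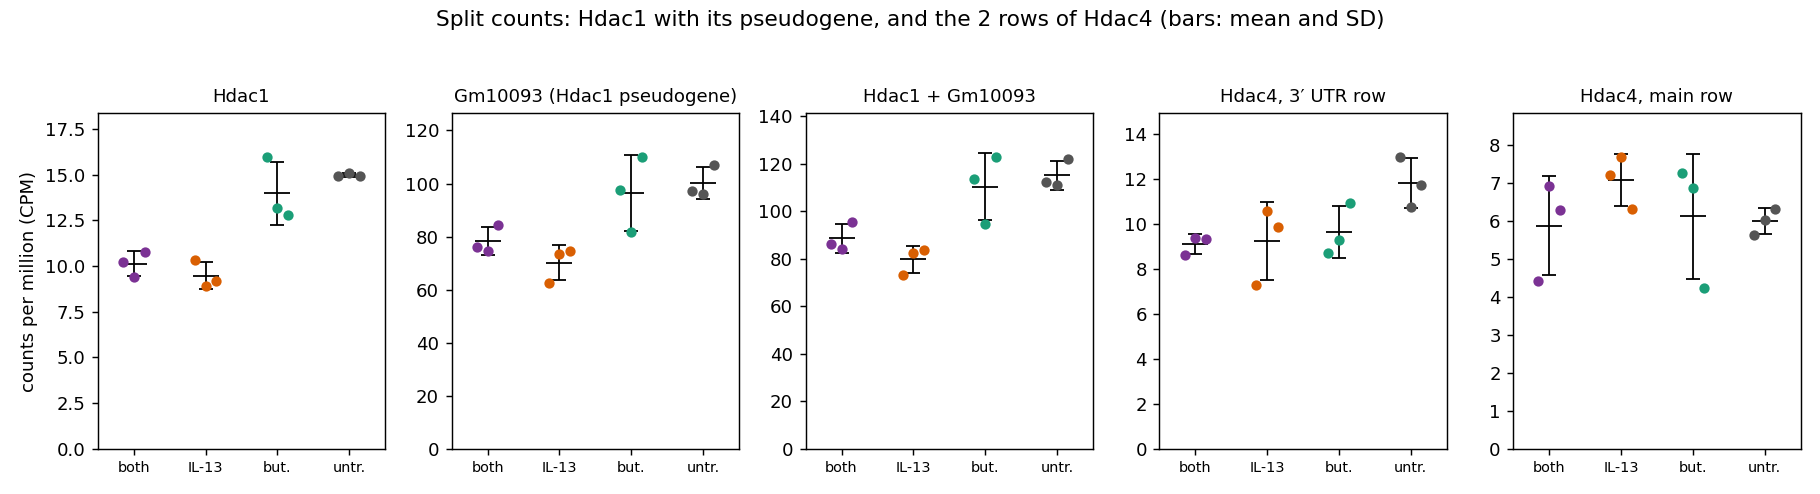
CPM (vertical axis, from 0) in each of 3 libraries per group, with mean and SD as bars, of Hdac1, its pseudogene Gm10093, their sum, and the 2 deposited rows of Hdac4. Hdac1 and Gm10093 are both lower in the 2 groups given IL-13, at 10.1 and 9.47 CPM for Hdac1 against 14.98 CPM in untreated enteroids, and the Hdac4 row at the 3′ end is at 9.13 CPM with both agents against 11.8 CPM in untreated enteroids, the other row at 5.88 against 5.996 CPM.

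Class IIa holds the gene with the largest change of the 10, and its 3 genes behaved differently. HDAC7 is a class IIa corepressor known from endothelium and thymocytes. Hdac7 stood at 6.96, 7.65 and 4.68 CPM with both agents, 11.6, 9.68 and 7.83 CPM with IL-13, 17.7, 14.97 and 17.3 CPM with butyrate, and 20.9, 22.9 and 24.1 CPM in untreated enteroids. The 4 groups did not overlap, and their order ran from both agents up through IL-13 and butyrate to untreated. Hdac7 fell with both agents to 0.28 of the untreated level (log2 fold change -1.82 ± 0.17, edgeR adjusted p = 6.3e-08) and with IL-13 to 0.43 (-1.22 ± 0.16, edgeR adjusted p = 9.4e-06), the largest changes among the 10 genes in those comparisons.

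With butyrate alone Hdac7 was at 0.74 of the untreated level, which missed the threshold (-0.44 ± 0.15, edgeR adjusted p = 0.094) and passed it when the fit held those groups alone (0.0419) and without butyrate + IL-13 replicate 3 (0.0493). Both agents against IL-13 gave -0.60 ± 0.18 (edgeR adjusted p = 0.027), and both against butyrate -1.38 ± 0.18 (3.8e-06). The call against IL-13 rested on single libraries: its adjusted p was 0.136 without IL-13 replicate 1, 0.0659 without IL-13 replicate 2, 0.161 without butyrate + IL-13 replicate 3, 0.121 without the Lars2-high libraries and 0.0588 when the fit held those groups alone. The Hdac7 interaction was -0.16 ± 0.24 (edgeR adjusted p = 0.91). The gene overlaps Slc48a1 on the opposite strand, and the sources used here do not give whether the counting used strand.

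HDAC5 is a class IIa enzyme that leaves the nucleus when it is phosphorylated. Hdac5 stood at 20.3, 24.0 and 25.2 CPM with both agents, 22.6, 25.1 and 29.5 CPM with IL-13, 41.3, 35.05 and 51.3 CPM with butyrate, and 41.0, 41.4 and 45.4 CPM in untreated enteroids. The groups with and without IL-13 were apart, and within each of these the groups overlapped. Hdac5 fell with both agents to 0.54 of the untreated level (log2 fold change -0.88 ± 0.14, edgeR adjusted p = 2.3e-05) and with IL-13 to 0.60 (-0.73 ± 0.13, edgeR adjusted p = 2.7e-04). Butyrate made no detectable difference to Hdac5, either alone (mean 42.6 ± 8.20 CPM against 42.6 ± 2.44 CPM in untreated enteroids, SD, n = 3 each; edgeR adjusted p = 0.99) or on top of IL-13 (-0.15 ± 0.14, edgeR adjusted p = 0.48).

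HDAC4 is the class IIa enzyme best known from muscle and cartilage. Hdac4 stood at 13.05, 16.3 and 15.7 CPM with both agents, 14.5, 18.3 and 16.2 CPM with IL-13, 15.998, 16.2 and 15.2 CPM with butyrate, and 18.6, 16.8 and 18.1 CPM in untreated enteroids, and was called in none of the comparisons. The table splits the gene into a pair of rows with one identifier, summed here. The row at mm10 chr1:91928785-91931176 covers 2392 bases of the last exon of the minus-strand gene, all beyond the coding part, and the other row lies 5′ of it, at chr1:91932757-92148393. Tested apart, after the data were seen, the 3′ end row was at 9.13 CPM with both agents, 9.24 with IL-13, 9.65 with butyrate and 11.8 in untreated enteroids, with a log2 fold change of -0.37 ± 0.16 for both agents over untreated (edgeR adjusted p = 0.0499) and -0.36 ± 0.16 for IL-13 (0.076). The other row was at 5.88, 7.08, 6.13 and 5.996 CPM in the same groups, with -0.02 ± 0.21 for both agents (edgeR adjusted p = 0.93) and 0.24 ± 0.21 for IL-13 (0.37). Whether the rows differ from each other was not tested.

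Both class IIb genes fell with both agents and with IL-13, and Hdac6 was the member whose fall against IL-13 alone held under every alternative tried. HDAC6 deacetylates tubulin, cortactin and the chaperone HSP90 in the cytoplasm. Hdac6 stood at 3.16, 4.22 and 2.34 CPM with both agents, 5.62, 6.66 and 6.67 CPM with IL-13, 7.78, 6.86 and 8.27 CPM with butyrate, and 8.997, 9.16 and 7.93 CPM in untreated enteroids, from 32 to 53 counts a library with both agents and 143 to 226 in untreated ones. The libraries with both agents lay below all others, those with IL-13 alone came next, and butyrate overlapped untreated. Hdac6 fell with both agents to 0.37 of the untreated level (log2 fold change -1.43 ± 0.20, edgeR adjusted p = 6.6e-06) and to 0.51 of that with IL-13 alone (-0.97 ± 0.21, edgeR adjusted p = 0.0029), calls that held under every alternative tried.

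The fall of Hdac6 with IL-13 alone was smaller and close to the threshold (-0.46 ± 0.18, edgeR adjusted p = 0.047). It lost the call under 11 of 20 alternatives, with adjusted p between 0.0509 and 0.151, and with the IL-13 libraries left out singly it was 0.151, 0.0774 and 0.072. The Hdac6 interaction was -0.78 ± 0.27, lower with both agents than the single changes add up to, with an edgeR adjusted p of 0.24 over all genes. HDAC10 is a polyamine deacetylase. Hdac10 stood at 6.72, 5.10 and 4.83 CPM with both agents, 9.16, 9.89 and 6.19 CPM with IL-13, 10.2, 7.96 and 11.2 CPM with butyrate, and 10.4, 12.4 and 13.4 CPM in untreated enteroids. Both groups given IL-13 lay below untreated, while neighbouring groups along that order overlapped.

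Hdac10 fell with both agents to 0.46 of the untreated level (-1.12 ± 0.20, edgeR adjusted p = 1.1e-04) and with IL-13 to 0.70 (-0.52 ± 0.19, edgeR adjusted p = 0.033; 0.119 on leaving out untreated replicate 3, 0.0871 for untreated replicate 2 and 0.181 for IL-13 replicate 3). Both agents against IL-13 gave -0.60 ± 0.21 (edgeR adjusted p = 0.049), lost under 12 of 20 alternatives with adjusted p up to 0.193, and 0.119 without the Lars2-high libraries. The 2 class IIb genes together summed to 8.79 ± 1.43 CPM with both agents, 14.7 ± 1.84 with IL-13, 17.4 ± 2.38 with butyrate and 20.8 ± 1.17 in untreated enteroids (SD, n = 3 each).

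HDAC11, the class IV enzyme, removes long-chain fatty acyl groups as well as acetyl groups, and its gene, like Hdac4 and Hdac8, was called in no comparison. Hdac11 stood at 109, 116 and 105 CPM with both agents, 97.2, 98.7 and 92.1 CPM with IL-13, 107, 93.4 and 118 CPM with butyrate, and 105, 102 and 109 CPM in untreated enteroids. With IL-13 alone all 3 libraries lay below untreated and below both agents, while butyrate overlapped every group and both agents overlapped untreated. The log2 fold change over untreated was 0.06 ± 0.09 with both agents (edgeR adjusted p = 0.55), -0.13 ± 0.09 with IL-13 (0.23) and 0.01 ± 0.09 with butyrate (0.97). These directions depend on the scaling: with plain library totals Hdac11 was lower with both agents (-0.23, edgeR adjusted p = 0.029), with IL-13 (-0.30, 0.00911) and with butyrate (-0.05, 0.75), and the first 2 of these passed the threshold. Of the windows of 50 bases along its transcript, 22.81% lie in opposite-strand genes that overlap it, Gm44002 and Gm14573, and what reads from them add to its count was not tested.

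**Figure D3:**
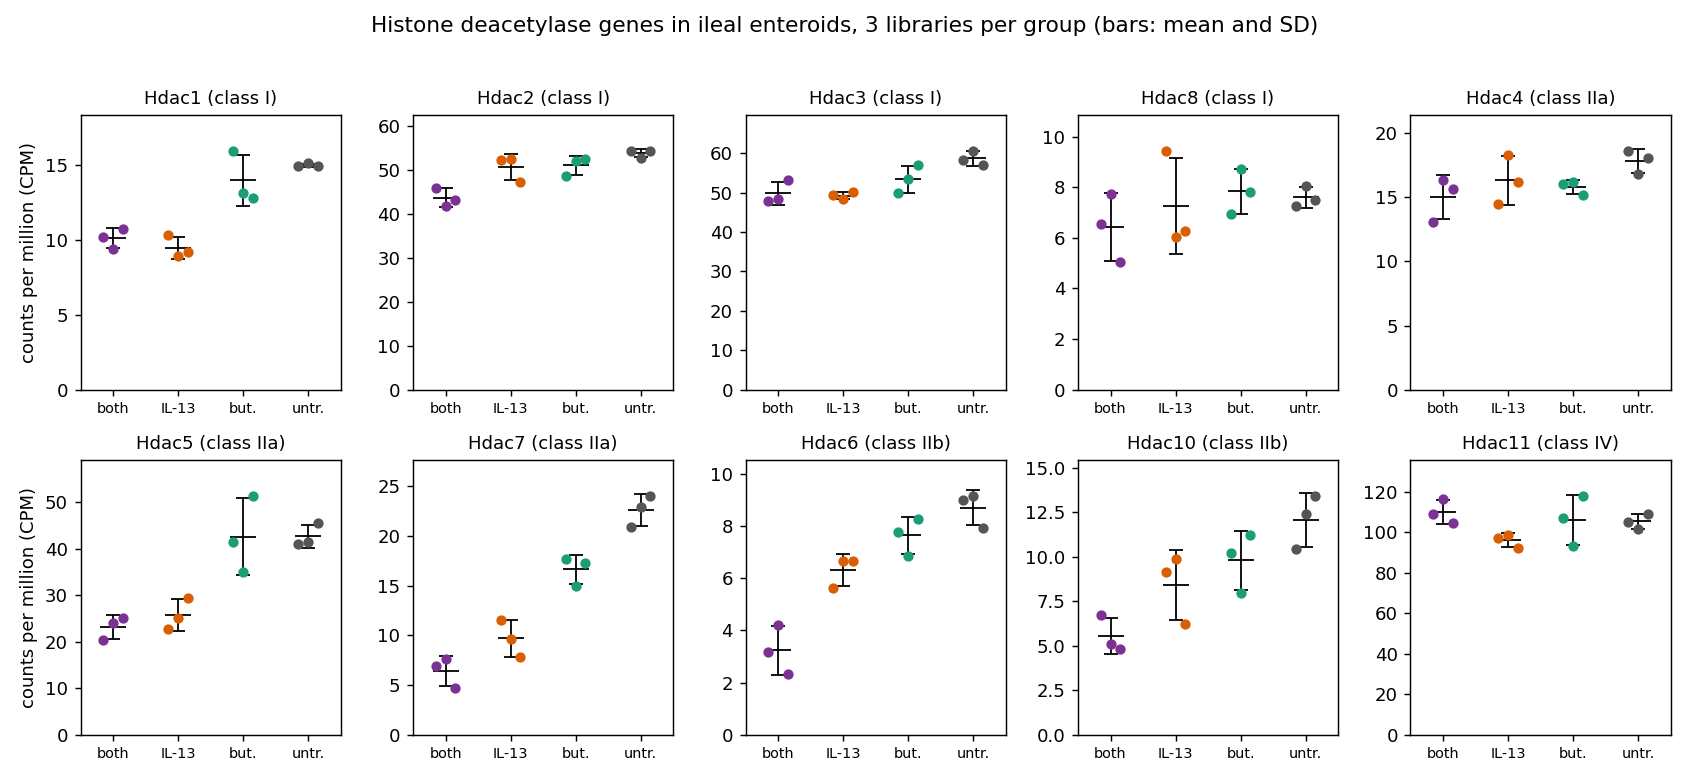
CPM (vertical axis, from 0) of the 10 genes in each of 12 libraries, 3 per group, with mean and SD as bars; groups from left to right are both agents, IL-13, butyrate and untreated. Hdac7 steps across all 4 groups, from 4.68 to 7.65 CPM with both agents against 20.9 to 24.1 CPM in untreated enteroids, Hdac6 is lowest with both agents, Hdac1 and Hdac5 separate by IL-13, and Hdac8 and Hdac11 overlap untreated with both agents.

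Per length of exon, which allows levels of different genes to be set side by side, Hdac11 had the highest level of the 10 genes in all 4 groups when Hdac1 was counted by its own row. That order depends on the reads shared with Gm10093. With the counts of both rows over the Hdac1 exon length, added after the data were seen, Hdac1 reached 25.7 ± 1.74 CPM per kb with both agents, 23.1 ± 1.70 with IL-13, 32.04 ± 4.14 with butyrate and 33.4 ± 1.73 in untreated enteroids (SD, n = 3 each). It then came second with both agents and with IL-13 and first with butyrate and in untreated enteroids, and it overlapped Hdac11 in all groups but the untreated one. With Hdac1 by its own row, Hdac11 stood at 27.4 ± 0.955 CPM per kb in untreated enteroids (SD, n = 3), followed by Hdac3 at 14.5, Hdac2 at 12.04, Hdac5 at 4.86, Hdac1 at 4.35, Hdac10 at 3.57, Hdac7 at 3.35, Hdac8 at 1.57, Hdac6 at 1.49 and Hdac4 at 1.13. Neighbours in that order did not overlap, except Hdac10 with Hdac7 and Hdac8 with Hdac6. With coding length in place of exon length the first 5 kept their order in all 4 groups, while Hdac8 came ahead of Hdac10 and Hdac4 ahead of Hdac6 in each.

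By the same rows, the summed level of the 10 genes with both agents was 61.7 ± 1.25 CPM per kb, against 61.6 ± 2.003 with IL-13, 70.3 ± 5.24 with butyrate and 74.2 ± 1.27 in untreated enteroids (SD, n = 3 each). Hdac11 made up 46.3 ± 1.55% of that sum with both agents, 40.5 ± 0.42% with IL-13, 39.1 ± 1.76% with butyrate and 36.9 ± 0.861% in untreated enteroids. With Gm10093 counted as Hdac1 its share was 33.9 ± 1.88% with both agents, 30.4 ± 0.79% with IL-13, 27.98 ± 0.662% with butyrate and 26.5 ± 0.44% in untreated enteroids, of sums of 84.4, 82.01, 98.3 and 103.25 CPM per kb. The share of Hdac7 was 1.54 ± 0.347% with both agents, against 4.51 ± 0.251% in untreated enteroids, and that of Hdac6 was 0.901 ± 0.244% against 2.02 ± 0.187%; with Gm10093 counted in they were 1.13% against 3.24% and 0.66% against 1.45%. Hdac7 thereby went below Hdac8 in the order with both agents and with IL-13, overlapping it in each, whereas it was above and apart from Hdac8 in untreated enteroids.

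**Figure D4:**
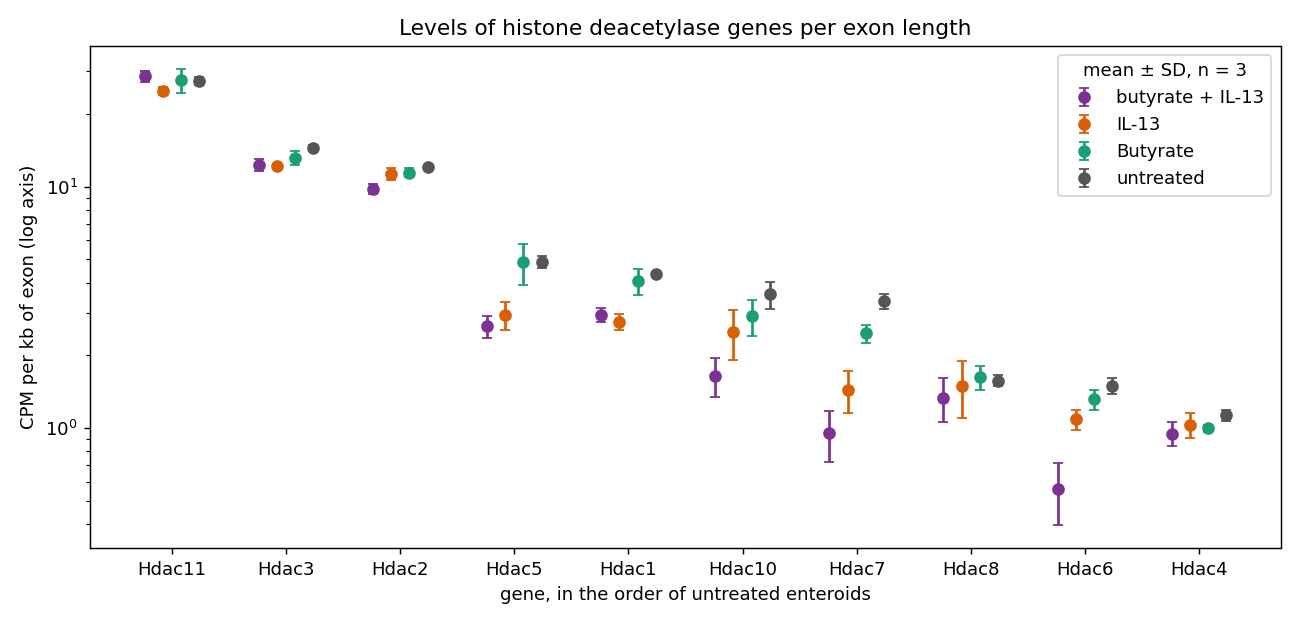
CPM per kb of exon (vertical log axis), mean and SD of 3 libraries per group, for the 10 genes in the order of untreated enteroids, with Hdac1 by its own row. Counted so, Hdac11, Hdac3 and Hdac2 stay above the rest in all groups, at 28.6, 12.3 and 9.78 CPM per kb with both agents, while Hdac7 and Hdac6 are at 0.952 and 0.557 CPM per kb with both agents, against 3.35 and 1.49 in untreated enteroids.

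RefSeq promoter windows on GRCm38.p6 were given for 7 of the 10 genes (all but Hdac1, Hdac3 and Hdac10), and the 250 bases before the start are shown for the class IIa and IIb genes that fell, Hdac7, Hdac5 and Hdac6, and for Hdac11, which was called in no comparison. Capitals mark the GC box GGGCGG and the CCAAT box CCAAT on either strand, which 32.7% and 33.8% of 32851 mouse promoters hold in windows of that length. The Hdac6 window, chrX:7947890-7948139 on the minus strand, holds 4 GC boxes and 2 CCAAT boxes. The Hdac5 window, chr11:102230173-102230422 minus, holds 1 and 2, and the Hdac11 window, chr6:91156565-91156814 plus, holds 1 of each. Hdac7 has 4 listed starts, and the window at the 5′ end of its deposited row, chr15:97844503-97844752 minus, holds neither motif; of its other windows, chr15:97831496-97831745 holds 1 GC box and the remaining ones neither motif. None of the 4 windows shown holds TTCNNNNGAA, the spacing known for STAT6 (5.9% of promoters), nor the E2F pattern TTTCGCGC (0.3%), and TGACG, part of the cyclic AMP response element (17.8%), occurs at 1 place, in the Hdac11 window. Of the 7 genes, Hdac4, which was called in no comparison, has the one window with TTCNNNNGAA (1 match), and it holds 4 GC boxes and 2 CCAAT boxes. These letters are a description of the windows only.
Hdac7: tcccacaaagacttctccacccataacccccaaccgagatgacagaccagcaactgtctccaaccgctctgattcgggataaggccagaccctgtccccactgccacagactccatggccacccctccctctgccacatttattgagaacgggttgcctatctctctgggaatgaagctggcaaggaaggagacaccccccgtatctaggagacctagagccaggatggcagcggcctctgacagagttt
Hdac5: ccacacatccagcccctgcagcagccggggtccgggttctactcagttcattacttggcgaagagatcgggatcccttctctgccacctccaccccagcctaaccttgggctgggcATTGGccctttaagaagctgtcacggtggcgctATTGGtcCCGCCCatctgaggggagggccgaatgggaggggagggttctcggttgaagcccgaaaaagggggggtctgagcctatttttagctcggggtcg
Hdac6: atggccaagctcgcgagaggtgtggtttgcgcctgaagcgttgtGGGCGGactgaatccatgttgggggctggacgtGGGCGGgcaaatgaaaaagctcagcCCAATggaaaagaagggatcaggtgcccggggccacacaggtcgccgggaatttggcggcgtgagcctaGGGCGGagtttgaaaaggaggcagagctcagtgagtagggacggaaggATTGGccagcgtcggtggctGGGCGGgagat
Hdac11: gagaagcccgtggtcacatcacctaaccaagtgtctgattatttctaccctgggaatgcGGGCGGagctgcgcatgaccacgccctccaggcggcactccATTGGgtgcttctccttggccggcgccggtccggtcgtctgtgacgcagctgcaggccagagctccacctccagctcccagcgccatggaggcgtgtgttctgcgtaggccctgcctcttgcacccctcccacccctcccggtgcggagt

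Subunits of NuRD, Sin3 and CoREST, corepressor complexes that hold HDAC1 and HDAC2, fell more often than they rose. Their counts, like those of the lists that follow, are set beside all genes tested, of which 31.5% fell and 28.2% rose with both agents, and 21.7% fell and 21.8% rose with IL-13. With both agents 6 of 13 NuRD genes fell and 1 rose, 6 of 14 Sin3 genes fell and 1 rose, and 3 of 9 CoREST genes fell and 2 rose. With IL-13 alone 4 of 13 NuRD, 4 of 14 Sin3 and 2 of 9 CoREST genes fell, and 2 Sin3 genes rose. The CoREST counts of falls were near the share of all genes in both comparisons. MiDAC, another complex listed, went the other way with both agents, with 1 of 2 genes tested higher and 0 lower. Zmym3, a CoREST-associated zinc finger gene, fell to 12.8 CPM with both agents and 15.8 with IL-13, against 35.6 in untreated enteroids (edgeR adjusted p = 4.6e-09 and 1.5e-07). The NuRD gene Mbd3 fell to 40.6 CPM with both agents and 52.0 with IL-13, against 84.3 in untreated enteroids (1.4e-05 and 0.0013).

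The sirtuins, the NAD-dependent deacetylases of class III, had 2 of 7 genes higher and 0 lower with both agents, and likewise with IL-13, near the 28.2% and 21.8% of all genes that rose. Sirt3, the main mitochondrial deacetylase, rose to 60.7 ± 8.73 CPM with both agents and 47.8 ± 4.005 with IL-13, against 22.5 ± 3.07 in untreated enteroids (SD, n = 3 each; edgeR adjusted p = 8.2e-08 and 5.6e-06). Of 10 histone acetyltransferase genes, 4 rose and 3 fell with both agents, and 4 rose and 2 fell with IL-13, and both counts of falls were near the share of all genes. The median log2 fold change over the 10 was 0.15 with both agents and 0.16 with IL-13. The genes named next had the smallest adjusted p, and both are among those that fell. Kat2a, which encodes GCN5, fell to 15.1 CPM with both agents and 23.5 with IL-13, against 33.9 in untreated enteroids (edgeR adjusted p = 6.8e-07 and 0.0027). Hat1, whose product acetylates newly made histones, fell to 11.3 and 13.6 CPM in the same groups, against 22.5 (3.1e-06 and 1.4e-04).

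Class IIa enzymes are held in the cytoplasm by 14-3-3 proteins after kinases of the PKD, CaMK, SIK and MARK families phosphorylate them, and in the nucleus they bind MEF2 factors. Of 9 such binding partners tested, 7 rose and 1 fell with both agents, where 28.2% of all genes rose, and 4 rose and 1 fell with IL-13, where 21.8% rose. Sfn, stratifin, was at 564 CPM with both agents and 523 with IL-13, against 190.3 in untreated enteroids (edgeR adjusted p = 1e-09 and 6.2e-09). Of 10 kinases, 2 rose and 3 fell with both agents, and 3 rose and 2 fell with IL-13. Both counts of falls were near the share of all genes, and the rises lay to either side of it. Prkd3, a PKD kinase, fell to 7.73 CPM with both agents and 16.3 with IL-13, against 31.9 in untreated enteroids (6.5e-09 and 4.5e-05), and Camk1d rose to 298 and 256 CPM against 184 (1.6e-06 and 2e-04).

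Genes known to rise when histone deacetylases are inhibited were set beside the enzymes. Of 5, 3 rose with both agents, 3 with IL-13 and 2 with butyrate, where 28.2%, 21.8% and 5.14% of all genes rose, and 0 fell. Cdkn2b, a cyclin-dependent kinase inhibitor, was at 1029 CPM with both agents, 755 with IL-13, 250.1 with butyrate and 139 in untreated enteroids, and butyrate alone raised it (log2 fold change 0.84 ± 0.10, edgeR adjusted p = 3.1e-05), as it did Cdkn1a (0.65 ± 0.07, 2.1e-05). Of 9 genes for substrates of single deacetylases or their metabolism, 5 fell and 2 rose with both agents, where 31.5% of all genes fell and 28.2% rose. With IL-13 alone 6 of the 9 fell and 2 rose, where 21.7% of all genes fell and 21.8% rose. Smc1a, a cohesin gene, fell to 44.6 CPM with IL-13, against 87.5 in untreated enteroids (edgeR adjusted p = 6.6e-08). Tubb5, a tubulin gene, fell to 325 CPM with both agents, against 961 in untreated enteroids (edgeR adjusted p = 6.9e-10). Sat1, which encodes a polyamine acetyltransferase, rose to 267 CPM with both agents, 181 with IL-13 and 139.8 with butyrate, against 93.3 in untreated enteroids (edgeR adjusted p = 1.5e-10, 1.2e-07 and 3.8e-04).

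Genes of proliferating cells were lower in both groups given IL-13. Their summed level over 12 genes was 252 to 294 CPM with both agents, 363 to 486 with IL-13, 947 to 1074 with butyrate and 1111 to 1149 in untreated enteroids, and 12 of 12 fell in each group given IL-13, where 31.5% of all genes fell with both agents and 21.7% with IL-13. The part of the share of proliferating cells in the levels of the deacetylase genes was not tested. By the root mean square difference in centred log2 CPM over the 12 libraries, among 10244 genes, the gene most like Hdac7 was Engase (0.123) and the next Haus4 (0.155), those most like Hdac6 were Grwd1 (0.128) and Fam57a (0.129), and those most like Hdac5 were B4galnt1 (0.118) and Samhd1 (0.119). Engase was at 34.4 CPM with both agents, 47.6 with IL-13, 84.9 with butyrate and 106 in untreated enteroids. Among the other deacetylase genes, the one most like Hdac7 was Hdac6 (0.34), and Hdac11 was the least like it (0.73).

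The authors' deposited table, which compares IL-13 with untreated libraries only, lists log2 fold changes of -1.22 for Hdac7, -0.72 for Hdac5, -0.656 for Hdac1, -0.515 for Hdac10, -0.456 for Hdac6 and -0.248 for Hdac3. The false discovery rates it lists are 1.41e-13 for Hdac7, 3.59e-09 for Hdac5, 1.36e-04 for Hdac1, 0.0255 for Hdac10, 0.0115 for Hdac3 and 0.0562 for Hdac6. Hdac6 is thus the one gene of the 6 called here that lies above 0.05 in the authors' deposited table.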

How the data were processed

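Poly(A) RNA of 12 enteroid libraries, 3 per group, was sequenced by a strand-keeping protocol (per the labels' protocols). The deposited table held whole-number counts of reads per gene in each library, without normalisation, and 0 per-sample columns were left unused. It also held the authors' p-value, false discovery rate and log2 fold change, plain and shrunken, for untreated and IL-13 libraries, per the file headers. Per the submitters' processing notes the build was mm10; aligner, counting tool and use of strand were not given in the sources used here. Members, lists and named genes were chosen with earlier results of these data known.

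Rows of a gene were summed (23 genes with several). The test was edgeR 4.0.16's quasi-likelihood test in R 4.3.3 (glmQLFit robust, TMM, filterByExpr, which kept 13750 and removed 4318 genes), on all 12 libraries at once with a coefficient per group. Adjusted p-values are Benjamini-Hochberg over all genes tested in a comparison, called under 0.05. The coefficient of variation among libraries of a group beyond counting noise, as edgeR estimates it, was 10.2%, on 8 residual degrees of freedom. Replicates differed beyond counting noise in all pairs (chi-square per degree of freedom 3.82 to 35.8). CPM are relative to TMM-scaled totals. On simulated counts of 13559 genes for IL-13 over untreated, 88.1% of genes altered 1.5-fold were recovered, 100% at 2-fold and 100% at 4-fold, with 13 false calls. That simulation altered a small part of the genes, up or down, all with a mean of at least 50 counts. It gave every gene the same dispersion, so these figures are not the performance of the test on the real libraries.

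Named genes were all members, of each list up to 2 called genes per comparison with the smallest adjusted p and a mean of at least 50 counts, and the 2 genes most alike to each called member; the text prints part of these from the top. The lists were corepressor complexes, of which MiDAC had 1 of 2 tested genes higher with both agents and 1 complex is not reported here, sirtuins, acetyltransferases, BET readers (1 of 3 higher and 1 lower with both agents), class IIa partners and kinases, substrates, genes raised by inhibition, proliferation, and markers of 5 cell types. Alternatives were RLE scaling, plain totals, DESeq2 1.42.0, leaving out the filter or raising it to a mean of 50 counts, fits of only the groups compared, a block for the replicate number, and fits without each single library or without both Lars2-high ones. Lengths and sequence overlaps came from GENCODE M21, promoters from RefSeq (GRCm38.p6). Python 3.11.15 with pandas 2.3.3 and matplotlib 3.10.9 made tables and plots.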

Additional observations from a re-analysis of the deposited data

How the results depend on the processing

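Values of the 10 genes were compared with single libraries left out and under the other alternatives. In that order, 664 and 440 kept their direction and side of the threshold, and 36 and 14 lost a call. A further 1 and 8 gained a call without turning, and 19 and 14 turned direction. None of the values that turned had been called as reported. Hdac11 with both agents over untreated turned with plain library totals and was called there (-0.23, edgeR adjusted p = 0.029). The number of the 10 genes called for IL-13 over untreated ranged from 3 (without untreated replicate 2) to 6 with single libraries left out. For butyrate over untreated it ranged from 0 to 1, and was 1, Hdac7, in a fit of only the groups compared. For both agents over IL-13 it ranged from 1 to 3, and was 1 in a fit of only the groups compared and 1 without the Lars2-high libraries; Hdac6 was called in each. The causes were not tested.

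Directions turned with plain library totals, which shift all genes, for Hdac8 (-0.02) and Hdac11 (-0.05) with butyrate, Hdac11 with both agents over untreated (-0.23) and over butyrate (-0.17), Hdac1 (-0.03) and Hdac3 (-0.11) for both agents over IL-13, and the Hdac4 interaction (-0.01). Without the Lars2-high libraries they turned for Hdac8 (-0.05), Hdac5 (0.12) and Gm10093 (0.05) with butyrate, Hdac3 for both agents over IL-13 (-0.03) and the Hdac8 interaction (0.03). Hdac5 with butyrate was 0.0 with RLE scaling, 0.0 with DESeq2 and 0.01 with only the groups compared. With single libraries left out, butyrate over untreated ranged from -0.15 to 0.12 for Hdac5, -0.05 to 0.12 for Hdac8, -0.07 to 0.09 for Hdac11 and -0.16 to 0.05 for Gm10093. IL-13 over untreated ranged from -0.31 to 0.04 for Hdac8. Both agents over IL-13 ranged from -0.02 to 0.07 for Hdac3 and -0.32 to 0.06 for Hdac8, and both over butyrate from -0.14 to 0.05 for Hdac4 and -0.03 to 0.13 for Hdac11. The interaction ranged from -0.02 to 0.16 for Hdac4, -0.27 to 0.0 for Hdac5, -0.3 to 0.04 for Hdac7 and -0.36 to 0.02 for Hdac8.

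Among all genes, the count called with butyrate alone fell to 607, 559 and 624 without untreated replicate 2, untreated replicate 3 and butyrate replicate 1, against 1086 with all libraries. For both agents over IL-13 it was 1935 without butyrate + IL-13 replicate 3, against 2912. The interaction count was 265 with DESeq2 and 55 to 213 with single libraries left out, against 119. Same-numbered libraries deviated together in no common way (correlations -0.15 to 0.1, 2 of 12 libraries closest to their own number). With 3 libraries per group, these values cannot exclude that libraries were matched by number. A fit with the replicate block called 5, 0 and 7 of the 10 genes for IL-13, butyrate and both over untreated. It called 2 for both over IL-13, 5 for both over butyrate and 0 for the interaction. That fit ended the calls of Hdac6 with IL-13 (edgeR adjusted p = 0.0637), Hdac10 for both over IL-13 (0.0635) and Hdac2 for both over butyrate (0.0546). Depth limits Hdac6, Hdac7, Hdac8 and Hdac10 most, with under 100 counts in several libraries given IL-13.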
